A study of Drosophila melanogaster with 30 samples.

Results

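Nuclear RNA from photoreceptors labelled Spt5 shRNA was compared with the mean of 7 other knockdowns of transcription factors and elongation regulators, namely Spt6, TH1, Cdk12, Taf1, Top1, Trl and cnc. The comparison used 24 of the 30 libraries of the series, with 3 libraries labelled Spt5 and 21 reference libraries, and each reference group of 3 had the same weight. The groups labelled LexA and dom were left out by the rule of the comparison. It asks how the nuclear transcriptome under one hairpin differs from that under other hairpins, so that the driver, the tag and the presence of a hairpin were shared by both sides. All flies were Drosophila melanogaster males aged 30 days, raised at 25 C under daily cycles of 12 h light followed by 12 h dark. In every group the genotype was Rh1-GFPKASH, Rh1-Gal4>sh-X, where X is the target named above. The Rh1 promoter is active in outer photoreceptors, the cells that carry the major rhodopsin of the fly eye. It drove both the Gal4 that expressed the hairpin and a GFP anchored in the nuclear envelope, by which nuclei were enriched. Groups were taken from the sample titles, because the genotype labels of several groups count upward over replicates, and libraries 2 and 3 titled Spt5 carry the genotype labels sh-Spt6 and sh-Spt7.

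Spt5 is the large subunit of DSIF, a factor that binds RNA polymerase II shortly after initiation. Together with the negative elongation factor NELF it holds the polymerase paused near the promoter, and after phosphorylation by the kinase P-TEFb it travels with the polymerase as a positive elongation factor. Of the reference targets, Spt6 is a histone chaperone of elongating polymerase, TH1 a subunit of NELF, Cdk12 a kinase of the polymerase tail, Taf1 a subunit of TFIID, Top1 a topoisomerase, Trl the GAGA factor and cnc the fly relative of the antioxidant regulator Nrf2.

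The 3 libraries labelled Spt5 were not alike. In a principal component analysis of log2 CPM (gene counts scaled to a common library size), library 3 scored 4.38 on the second component, within the reference libraries, which lay between -7.42 and 35.0, whereas libraries 1 and 2 scored -77.1 and -105.7. Library 1 was above all 21 reference libraries in 2405 of 14905 genes tested and library 2 in 2473, but library 3 in 193. The corresponding counts below all 21 were 1132, 1661 and 248 genes. Counts of calls in the gene lists are therefore also given without library 3. So are log2 fold changes of genes described here, other than the shRNA targets, that moved by over 1.5 times when it was left out.

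**Figure D1:**
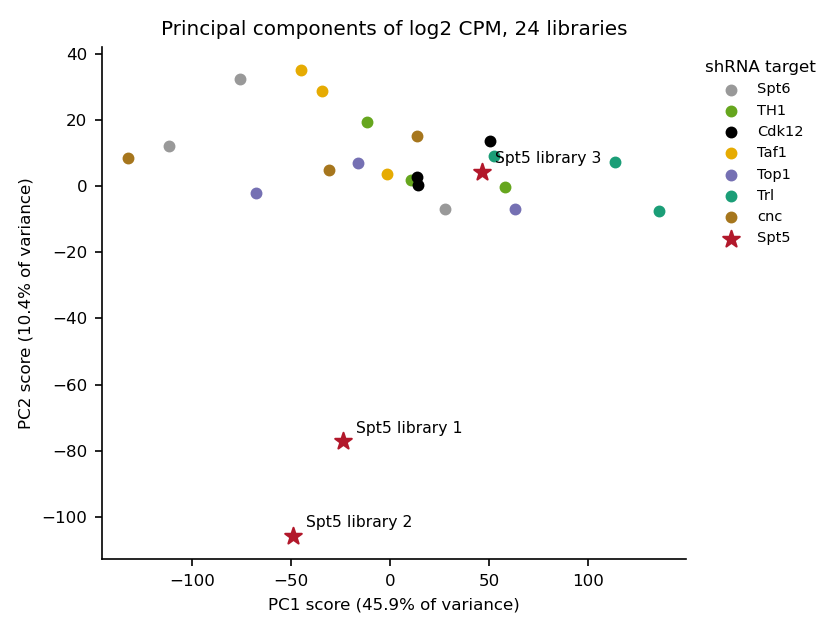
Scores of the 24 libraries on the first and second principal component of log2 CPM, which hold 45.9% and 10.4% of the variance; colour gives the shRNA target. Spt5-labelled libraries 1 and 2 lie at -77.1 and -105.7 on the second component, apart from all others, and library 3 lies among the reference libraries at 4.38.

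The target itself did not separate the groups. Spt5 was at 61.2, 55.1 and 58.7 CPM in the libraries labelled Spt5, and between 34.8 (Trl replicate 2) and 87.9 CPM (Spt6 replicate 3) in the references, with a median of 64.1 CPM. All 3 values lay inside the reference range, and the log2 fold change was -0.09 (SE 0.13, adjusted p 0.75). The counts therefore do not check the label, and directions given here are those of the libraries labelled Spt5. The other 7 targets were not called either, with log2 fold changes between -0.23 for Taf1 and 0.15 for Top1. Each of them is the target in a single reference group, so this contrast does not check the labels of those groups.

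Depth and layout differed between libraries. Gene counts were 14659278, 7535919 and 10361748 in the Spt5-labelled libraries and lay between 4064250 and 18024440 in the references. Reads aligned to several places amounted to 59.2, 94.5 and 76.9 per 100 gene counts in the Spt5-labelled libraries and to between 72.9 and 82.6 in Cdk12, but to between 12.9 and 33.0 in the other 6 reference groups. The files of these same groups, Spt5 and Cdk12, also lack 2 transgene rows that the other files hold. Cdk12 is thus the one reference group with the same file layout, and values against Cdk12 alone are given beside many of the pooled ones. Reads outside annotated features were 55.4, 65.6 and 106.2 per 100 gene counts against a reference range of 61.2 to 171.7 with a median of 88.3 (exact permutation test over libraries, two-sided, p = 0.268, smallest possible 0.000988). Reads that could not be assigned to a single gene were 4.79, 4.92 and 4.24 per 100 gene counts against 3.63 to 4.62 (exact permutation test, two-sided, p = 0.021). Libraries 1 and 2 were above every reference there, and library 3 was within the range.

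Against the mean of the 7 other knockdowns, 2517 of 14905 genes (16.9%) were called at an adjusted p under 0.05, with 1802 higher (12.1%) and 715 lower (4.8%). The median log2 fold change over all genes tested was 0.02. Among genes called higher, 1650 were above all 21 references in library 1, 1641 in library 2 and 39 in library 3. Among genes called lower, 509, 571 and 66 were below all 21. In library 3, 943 of the 1802 lay above the reference mean and 658 of the 715 below it. Library 3 was part of the test that chose these genes, so its side of the mean is not independent of the calls. Over all genes tested, the median of its log2 CPM minus the reference mean was 0.05. Without library 3 the calls numbered 2036 higher (13.4% of 15202) and 2095 lower (13.8%), with a median of -0.27. Without library 1 they were 500 higher and 54 lower, and without library 2 they were 648 and 59. Counts of gene lists given further on can be read against the 12.1% called higher and 4.8% called lower over all genes. Most of them too shrank when library 1 or 2 was left out. The shares differ with gene level. Over an average log2 CPM of 8, 6.37% were higher and 25.2% lower, and between 4 and 6, 28.4% and 7.66%. Over all genes, 5466 of 15202 had an unadjusted p under 0.05 without library 3, and 2628 of 15223 without library 1. The numbers were 2585 of 15651 without library 2 and 2844 of 14905 against Cdk12 alone.

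Each reference group was also used alone. The Spt5-labelled libraries differed from Taf1 in 2470 genes (16.6%), from Trl in 2098 (14.1%), from Spt6 in 1311 (8.8%), from cnc in 939 (6.3%), from Cdk12 in 801 (5.37%), from TH1 in 710 (4.76%) and from Top1 in 392 (2.63%). Against Cdk12, with the matching layout, 709 were higher (4.76%) and 92 lower (0.617%). When the fit held the 6 libraries of Spt5 and Cdk12 and no others, 2 genes were called, CG17267 and CG31286, both lower, and 1848 had an unadjusted p under 0.05. These counts can be read against those of each reference group set against the mean of the other 6. They were 76 for Spt6 (0.51%), 17 for TH1 (0.114%), 64 for Cdk12 (0.429%), 81 for Taf1 (0.543%), 46 for Top1 (0.309%) and 29 for cnc (0.195%), but 5008 for Trl (33.6%), the group with the highest share. The number for Spt5 was thus above those of 6 reference groups and below that of Trl.

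In 30 genes all 3 Spt5-labelled libraries lay above all 21 references (0.201% of genes tested), and in 30 they lay below all 21 (0.201%). Of these, 29 and 30 were called. Of those above, 12 lay on 3R, which holds 24.6% of genes tested, 8 on 2L (19%) and 1 on 2R (19.9%). Of those below, 8 lay on each of 2L and 2R and 6 on 3R. Of the 30 above, 11 overlap an annotated gene on the other strand, and of the 30 below, 17 do. The share of all genes tested with such an overlap was not counted, so no excess can be read from these numbers. The strand setting of the counting was not given in the sources used here, so reads of overlapping pairs cannot be told apart. Genes with a name and an average log2 CPM of at least 3 are described next, 12 by largest increase and the 7 that fell and qualified. All were picked among called genes beyond all 21 references, so a lack of overlap is not a separate result for any of them.

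The gene with the largest increase among them was 28SrRNA-Psi:CR45855 (X:23205822-23206525), a pseudogene copy of the large ribosomal RNA. It was at 59.0, 338.7 and 63.2 CPM, against 1.26 to 28.9 CPM with a median of 8.46 in the references. The groups did not overlap, with library 2 far above the other pair (log2 fold change 4.09, SE 0.38, adjusted p 2.6e-06; 2.78 without library 2, adjusted p 0.0014; against Cdk12 3.64, adjusted p 0.01). Copies of this RNA are nearly identical and the libraries were depleted of it, so its count is uncertain. Samuel (2L:11013206-11066998) was at 73.7, 80.9 and 50.9 CPM against 18.1 to 45.8 with a median of 27.5 CPM. All 3 libraries were above the range (log2 fold change 1.31, SE 0.15, adjusted p 1.6e-05), and the gene was also called against Cdk12 (1.26, adjusted p 0.0095).

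The next genes rose by smaller amounts. kek2, a transmembrane protein with leucine-rich repeats, was at 110.6, 105.3 and 71.6 CPM against at most 71.4 CPM in the references (log2 fold change 0.94, SE 0.15, adjusted p 0.00029). caps, which encodes the leucine-rich repeat protein Capricious, rose less, from a median of 79.5 CPM to 108.7, 110.4 and 92.3 CPM (0.42, adjusted p 0.0094). glec, which encodes the lectin gliolectin, was at 72.4, 69.8 and 53.5 CPM against at most 52.9 CPM (0.60, adjusted p 0.0016). In all of these, library 3 lay only just beyond the highest reference. peg (1.11, adjusted p 0.00067), whose secreted product is known to act on Wingless, and Gasp (1.04, adjusted p 0.00069), a chitin-binding protein of cuticle, rose as well. The zinc finger gene sens-2 was at 15.7, 13.9 and 11.6 CPM against 4.62 to 11.1 CPM (0.88, SE 0.17, adjusted p 0.001). None of kek2, caps, glec, peg, Gasp and sens-2 was called against Cdk12 alone (adjusted p 0.062 to 0.43), where peg was at 0.47 and sens-2 at 0.49.

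Nca encodes neurocalcin, a calcium sensor of neurons, and was at 41.4, 43.5 and 27.8 CPM against 9.20 to 25.7 with a median of 20.3 CPM (log2 fold change 0.92, SE 0.17, adjusted p 0.00088). jdp encodes a J-domain co-chaperone and was at 87.2, 83.2 and 63.8 CPM against 31.0 to 61.2 CPM (0.81, SE 0.14, adjusted p 0.00059). The groups did not overlap for either gene, and neither was called against Cdk12 alone (adjusted p 0.11 and 0.095). js (1.19, SE 0.20, adjusted p 0.00042) and SP1029 (0.91, SE 0.15, adjusted p 0.00037), which encodes a peptidase, were called there too (adjusted p 0.025 and 0.011).

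The largest decrease among the genes below all references was that of Cyp4p2 (2R:9237512-9239831), a cytochrome P450. It was at 27.1, 31.8 and 76.8 CPM against 114.8 to 459.7 with a median of 199.9 CPM. All 3 libraries were below the range, library 3 less so (log2 fold change -2.31, SE 0.34, adjusted p 0.00025; -1.87 against Cdk12, adjusted p 0.01; -3.08 without library 3). Arr2 (3L:8647261-8648936) encodes the major arrestin, which binds activated rhodopsin and ends its signal. It was at 2587, 2785 and 4600 CPM against 4682 (cnc replicate 2) to 16030 (Top1 replicate 2) with a median of 7249 CPM. Libraries 1 and 2 were far below the range and library 3 just below it (-1.18, SE 0.23, adjusted p 0.001; -1.14 against Cdk12, adjusted p 0.018).

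The other 5 were smaller in level. Orct2, an organic cation transporter, was at 9.77, 10.4 and 11.04 CPM against 14.2 to 34.1 CPM, and there library 3 was as low as the others (log2 fold change -1.26, SE 0.23, adjusted p 0.00077). spel1, the fly MutS homolog of mismatch repair, was at 32.0, 34.5 and 39.3 CPM against 40.1 to 98.2 CPM (-0.86, SE 0.12, adjusted p 0.00015). Drice, the main effector caspase, was at 11.5, 14.3 and 16.8 CPM against 17.2 to 35.3 CPM (-0.70, SE 0.16, adjusted p 0.0031). Panx, a factor of silencing guided by piRNAs, fell (-0.64, adjusted p 0.02), and so did D12, which encodes a YEATS-domain protein (-0.51, adjusted p 0.024). Against Cdk12 alone, none of Orct2, spel1, Drice, Panx and D12 was called (adjusted p 0.055 to 0.36).

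**Figure D2:**
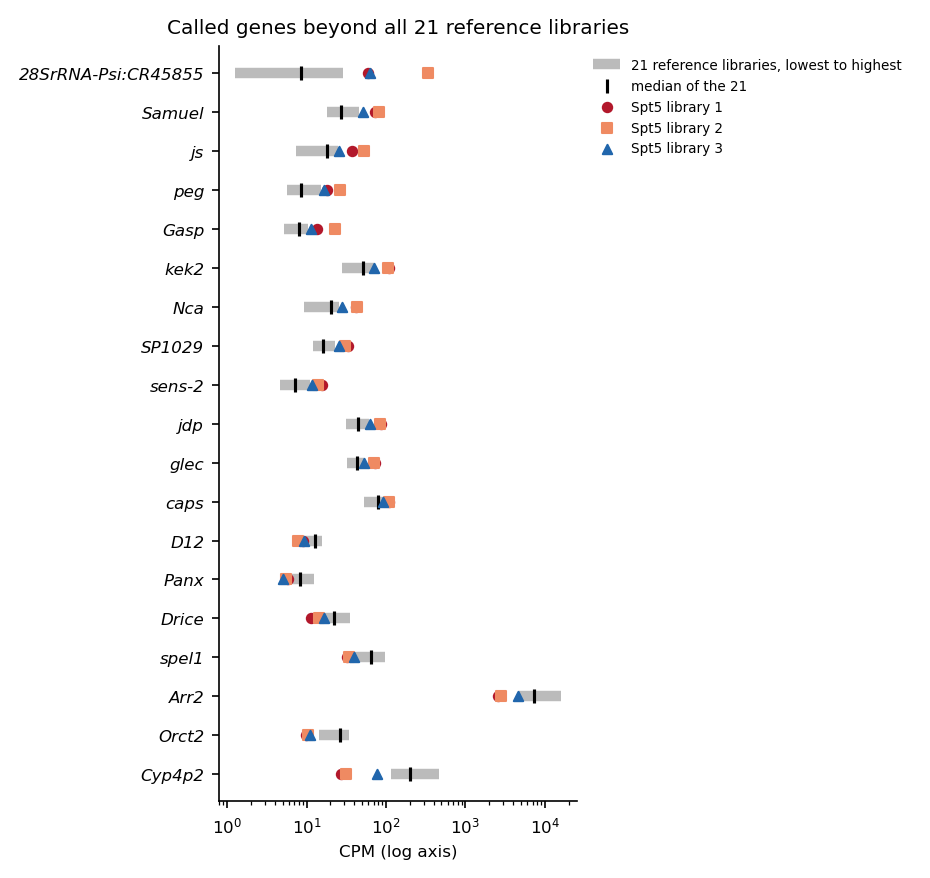
CPM on a log axis of the 12 named genes above and the 7 below all 21 reference libraries; grey bars run from the lowest to the highest reference library, ticks mark the median of the 21, and symbols are the 3 Spt5-labelled libraries. Library 3 lies nearest to the grey bar in most genes, and Cyp4p2 and 28SrRNA-Psi:CR45855 show the widest gaps.

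Many genes of the light response were lower in the libraries labelled Spt5. In outer photoreceptors the rhodopsin encoded by ninaE activates a G protein and the phospholipase C encoded by norpA, which opens the channels TRP and TRPL in the rhabdomere, a stack of microvilli. Of 14 markers of outer photoreceptors, 9 fell, and the median log2 fold change was -0.999 against 0.02 over all genes. The markers were chosen with earlier results of these data known, and each also belongs to a wider list described further on, 10 to the cascade, 3 to the rhodopsin list and 1 to the rhabdomere list. Median deviations of log2 CPM from the reference mean were -1.84, -1.73 and -0.04 in libraries 1, 2 and 3 and between -0.83 (Trl replicate 2) and 0.45 (Spt6 replicate 3) in the references. Summed over the 14 markers, CPM were 25390, 27030 and 78090 against 49350 to 128900. Libraries 1 and 2 lay below every reference and library 3 in the middle of them. All 14 markers were called lower without library 3, 1 without library 1, 1 without library 2 and 3 against Cdk12 alone. In bulk nuclei, fewer photoreceptor nuclei and less of these RNAs per nucleus cannot be told apart.

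The members varied in size. ninaE was at 7994, 7681 and 12070 CPM against 9951 to 32180 with a median of 14290 CPM (log2 fold change -0.71, SE 0.18, adjusted p 0.0095; -0.79 against Cdk12, adjusted p 0.047). Its log2 fold change was -1.09 without library 3. inaC, the protein kinase C of the cascade, was at 245.7, 243.6 and 975.7 CPM against 649.5 to 1669 with a median of 1180 CPM (-1.26, SE 0.33, adjusted p 0.0099; -2.41 without library 3). Library 3 overlapped the references in both genes. trpl, which encodes one of the channels, was at 3967, 3486 and 12500 CPM against 8652 to 28180 CPM (-1.15, SE 0.33, adjusted p 0.019). trp, which encodes the other channel, was at 2089, 2623 and 7640 CPM against 3270 to 17150 CPM and did not pass (-0.88, adjusted p 0.089). norpA was at 2512, 3049 and 13550 CPM against 7011 to 18920 CPM (-1.01, adjusted p 0.054). chp, which encodes a surface protein of the rhabdomere, was at 738.9, 880.0 and 3777 CPM against 1712 to 7028 CPM (-1.16, SE 0.35, adjusted p 0.023). In libraries 1 and 2 all of these were below every reference, whether or not the test across 3 libraries passed. Without library 3 the log2 fold changes of trpl, trp, norpA and chp were -2.13, -1.82, -2.35 and -2.46, and all 4 were called. These 4 genes were chosen after their values were seen.

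**Figure D3:**
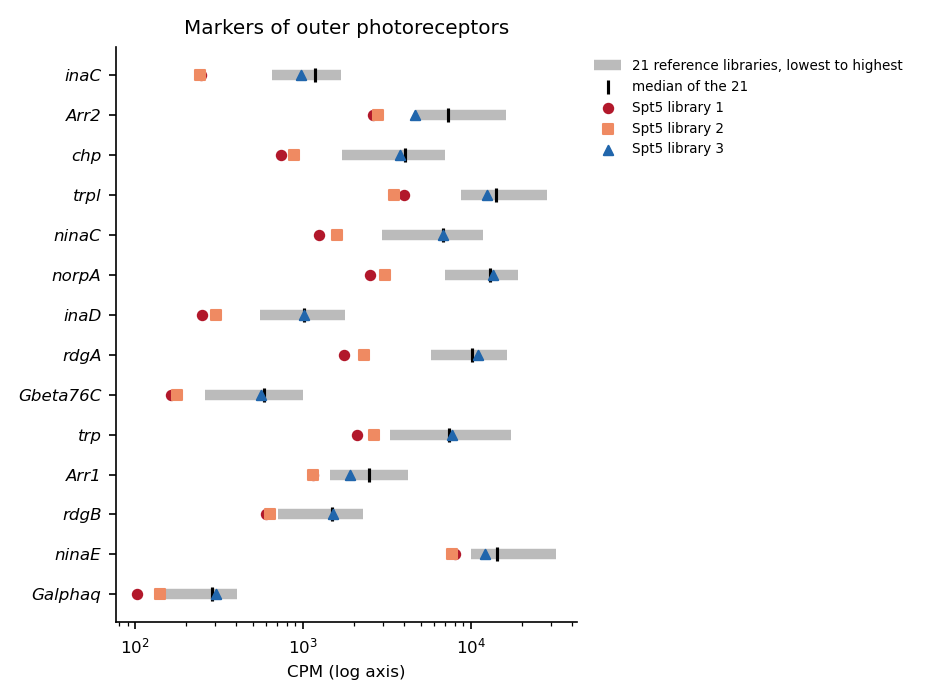
CPM on a log axis of the 14 markers of outer photoreceptors; grey bars run from the lowest to the highest of the 21 reference libraries, ticks mark their median, and symbols are the 3 Spt5-labelled libraries. Libraries 1 and 2 lie left of the grey bar for every marker, and library 3 lies inside it for every marker but Arr2.

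The wider lists moved in the same direction with a few opposite members. Of 15 tested genes of rhodopsin and its maturation, 6 fell and 1 rose, with a median of -0.47; without library 3 the counts were 9 and 2, and without library 1 or library 2 they were 1 and 1. The gene that rose was santa-maria, a scavenger receptor of carotenoid uptake that is known from neurons and glia outside the retina. It was at 83.3, 65.0 and 20.5 CPM against 14.3 to 27.0 CPM (1.52, SE 0.21, adjusted p 0.00018). ninaG, an oxidoreductase that makes the chromophore, fell (-1.001, SE 0.27, adjusted p 0.013; -1.88 without library 3). Of 22 genes of the cascade and its channels, 11 fell and 2 rose (median -0.94), and 17 and 2 without library 3. Without library 1 or library 2 none of the 22 was called lower by edgeR, and 1 and 2 were called higher, with 12 of 22 at an unadjusted p under 0.05 in both cases. Those that rose were Pld, a phospholipase D (0.94, adjusted p 0.00049), and laza, a lipid phosphatase (1.06, adjusted p 0.0036). rtp, which encodes the rhabdomeral protein retinophilin, fell (-0.96, SE 0.24, adjusted p 0.0075; -1.56 without library 3). Of 20 genes of the rhabdomere and apical membrane, 9 fell and 2 rose (median -0.49), and 11 and 2 without library 3. Without library 1 none of the 20 was called (6 at an unadjusted p under 0.05), and without library 2 only 1 was, higher (7 at an unadjusted p under 0.05). sdt, the partner of Crumbs, and Rab6, a GTPase of Golgi transport, fell (-0.73, adjusted p 0.017, and -0.61, adjusted p 0.021), while Cad99C and Amph rose (0.96, adjusted p 0.001, and 0.88, adjusted p 0.0041). The log2 fold change of sdt was -1.18 without library 3. Against Cdk12 alone, 3 fell and 1 rose among the rhodopsin genes and 1 and 2 in the cascade. In the rhabdomere list the 4 named genes had adjusted p-values of 0.05 to 0.42 there and none of the 20 was called (10 at an unadjusted p under 0.05).

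Some transmitter genes of photoreceptors fell and others rose. Photoreceptors release histamine, which Hdc makes and CarT helps to recycle. Hdc was at 61.3, 74.5 and 231.9 CPM against 147.7 to 408.2 with a median of 248.2 CPM (log2 fold change -1.08, SE 0.28, adjusted p 0.0096; -2.07 without library 3). CarT was at 88.7, 70.02 and 201.8 CPM against 143.5 to 410.4 CPM (-1.13, SE 0.28, adjusted p 0.0062; -1.87 without library 3). Libraries 1 and 2 were below the range and library 3 within it. Of the 9 genes on that list 3 fell and 2 rose, the last being e, which couples histamine to beta-alanine in glia, and ine, a transporter (1.01, adjusted p 0.005, and 0.99, adjusted p 0.0019). The counts were 5 lower and 3 higher without library 3. Without library 1 none of the 9 was called (3 at an unadjusted p under 0.05), without library 2 only 1, and against Cdk12 alone 2, all of them higher. Among 25 genes of synaptic release and excitability 6 fell and 3 rose (median -0.42), and 19 and 3 without library 3. Without library 1 or library 2, none was called lower by edgeR and 1 and 2 were called higher (5 at an unadjusted p under 0.05 in both cases), and against Cdk12 alone 3 were called, all higher. Rim, an active zone protein, was at 1475, 1313 and 2938 CPM against 1988 to 4644 CPM (-0.78, SE 0.21, adjusted p 0.013; -1.38 without library 3). The genes that rose encode ion channels, Ih (736.8, 678.0 and 168.0 CPM against 132.0 to 270.1 CPM; 1.44, SE 0.24, adjusted p 0.00049), the sodium channel gene para (1.49, SE 0.30, adjusted p 0.0015) and the potassium channel gene Shaw (1.09, SE 0.26, adjusted p 0.005). All 3 were also called against Cdk12 alone (adjusted p 0.014 to 0.027).

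Transcription factors of the retina split. Pph13, a homeodomain factor that activates rhodopsin and phototransduction genes, was at 37.0, 38.4 and 120.4 CPM against 79.4 to 220.5 with a median of 156.8 CPM (log2 fold change -1.25, SE 0.26, adjusted p 0.002; -2.19 without library 3). oc, the Otd factor, and gl, the zinc finger factor Glass, fell by 1.13 and 0.90 on the log2 scale (adjusted p 0.013 and 0.049), and by 2.21 and 2.01 without library 3; they were chosen after their values were seen. svp, dac and ey, which act earlier in eye development, rose (1.07, adjusted p 0.0014; 1.10, adjusted p 0.0019; 0.53, adjusted p 0.0032). Over the 13 factors 4 rose and 3 fell, and without library 3 the counts were 4 and 7. Without library 1 none was called (6 at an unadjusted p under 0.05), and without library 2, as against Cdk12 alone, 2 were called, both higher. Of 15 clock genes, the kinase gene sgg and jet fell (-0.70, adjusted p 0.039, and -0.68, adjusted p 0.044), and per, tim and Clk were not called. Without library 3, 4 clock genes were lower, with sgg at -1.46. EdgeR called 0 of the 15 without library 1, without library 2 and against Cdk12 alone, with 2, 1 and 1 at an unadjusted p under 0.05.

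Many markers of other cells of the head were higher. Of 19 markers of other neurons, 13 rose and 1 fell, and the median log2 fold change was 1.11. Their summed CPM were 3370, 2941 and 681 in the Spt5-labelled libraries against 591 to 1269. Libraries 1 and 2 were above every reference and library 3 near the lowest. Rdl, a GABA receptor, was at 810.9, 751.0 and 116.5 CPM against 102.7 to 270.5 with a median of 138.1 CPM (1.82, SE 0.30, adjusted p 0.00045; 2.19 against Cdk12, adjusted p 0.012). VGAT and VGlut, the vesicular transporters of GABA and glutamate, rose (1.45, SE 0.22, adjusted p 0.00029, and 1.22, SE 0.21, adjusted p 0.00053), and so did the muscarinic receptor gene mAChR-A (1.43, adjusted p 0.00029). Against Cdk12 alone 13 of the 19 rose. The one that fell, HisCl1, encodes a histamine-gated channel that photoreceptors also express (-0.72, adjusted p 0.031; -1.43 without library 3; chosen after its value was seen).

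Markers of glia, of inner photoreceptors and of the accessory cells of the eye were also higher in part. Of 17 glial markers 11 rose (median 0.78), with summed CPM of 1669, 1524 and 653 against 533 to 1048. repo, the transcription factor that defines glia, was at 76.8, 69.2 and 23.1 CPM against 12.1 to 45.5 with a median of 23.96 CPM (log2 fold change 1.13, SE 0.22, adjusted p 0.0011). Of 14 markers of inner photoreceptors 9 rose and 2 fell (median 0.78), with summed CPM of 3310, 3194 and 1691 against 1407 to 2405. Those that fell include oc, described above with the retinal factors (-1.13, adjusted p 0.013). Rh6 and Rh3, rhodopsins of inner photoreceptors, were at 207.7, 194.2 and 68.0 CPM against 21.4 to 104.6 CPM (1.41, SE 0.22, adjusted p 0.00035) and at 343.1, 343.6 and 131.3 CPM against 51.2 to 210.0 CPM (1.28, SE 0.21, adjusted p 0.00047). Of 17 markers of cone, pigment and corneal cells 6 rose and 1 fell (median 0.78), with summed CPM of 1456, 1293 and 1072 against 797 to 1351, so that libraries 2 and 3 overlapped the references. Crys, which encodes the lens protein crystallin, was at 73.6, 71.3 and 15.4 CPM against 2.23 to 26.4 with a median of 9.87 CPM (2.44, SE 0.28, adjusted p 2e-05; 1.67 against Cdk12, adjusted p 0.031).

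Some genes of fat body and blood cells were higher. Of 21 on that list 10 rose (median 0.69), with summed CPM of 9685, 8848 and 3384 against 2083 to 6416. Lsp2, a storage protein of fat body, was at 779.8, 627.9 and 234.5 CPM against 39.3 to 404.5 with a median of 124.4 CPM (log2 fold change 2.04, SE 0.24, adjusted p 2.3e-05). srp, a GATA factor of fat body and blood cells, and Pxn, a peroxidasin of hemocytes, rose (1.36, SE 0.24, adjusted p 0.00057, and 1.26, SE 0.24, adjusted p 0.00093). Of 22 muscle genes, 2 fell, Zasp52 and Tm1 (-1.07, adjusted p 0.011, and -0.82, adjusted p 0.02; -2.03 and -1.58 without library 3), and the summed CPM of 6957, 8643 and 6347 lay within the reference range of 3570 to 10160. The median log2 fold change over the 22 muscle genes was 0.21, both with all libraries and without library 3. Without library 3, 3 muscle genes were lower. EdgeR called 0 of the 22 without library 1, without library 2 and against Cdk12 alone, with 2, 2 and 3 at an unadjusted p under 0.05. Without library 3, the lists of neurons, glia, inner photoreceptors, accessory cells and fat body held 14, 12, 9, 8 and 10 genes called higher and 1, 0, 2, 2 and 0 called lower. Without library 1 the counts called higher were 8, 0, 4, 5 and 4, without library 2 they were 10, 2, 5, 4 and 4, and against Cdk12 alone 13, 4, 6, 5 and 4. Of the 17 glial markers 11 had an unadjusted p under 0.05 without library 1, where edgeR called none.

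The Gal4 transgene moved in the direction of the outer photoreceptor markers and opposite to the lists of neurons, glia and fat body. Scaled to gene counts, its CPM were 895, 1057 and 2823 in the Spt5-labelled libraries against 2074 to 11030 with a median of 3325 in the references (exact permutation test, two-sided, p = 0.00593). The top of the reference range came from one group, Cdk12, at 6484 to 11030, and the other 6 groups ran from 2074 to 6180. The test takes the 21 libraries as exchangeable, which these groups were not. Libraries 1 and 2 lay below every reference, and library 3 lay within the range. GFP was at 5.12, 5.97 and 13.2 CPM on that scale, against 6.11 to 33.9 (exact permutation test, two-sided, p = 0.0425). Both transgenes carry the Rh1 promoter, and the part of a differing mix of nuclei in the results was not tested.

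Stress and immune genes were higher in part. Of 20 heat shock proteins and chaperones 4 rose (median 1.02), and 6 without library 3, 1 without library 1, 2 without library 2 and 2 against Cdk12 alone. Hsp27, a small heat shock protein, was at 18.5, 29.0 and 2.95 CPM against 0.697 to 25.3 with a median of 1.56 CPM, and the highest reference, TH1 replicate 2, lay between libraries 1 and 2 (log2 fold change 2.73, SE 0.51, adjusted p 0.00079; 2.12 without library 2, adjusted p 0.047). Hsp68 was at 134.2, 114.4 and 13.2 CPM against 3.996 to 153.9 CPM (2.48, SE 0.53, adjusted p 0.0021), again with TH1 replicate 2 the highest. Of 25 genes of the unfolded protein and integrated stress response 8 rose and 1 fell (median 0.32), and 10 and 5 without library 3. Without library 1 none was called (8 at an unadjusted p under 0.05), without library 2 only 2 and against Cdk12 alone 3, all higher. Those that rose included Shmt and aay, enzymes of serine and one-carbon metabolism (1.20, adjusted p 0.0019, and 1.06, adjusted p 0.00073), AsnS, the asparagine synthetase (0.98, adjusted p 0.0057), and the disulphide isomerase gene ERp60 (0.73, adjusted p 0.003).

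Of 48 genes of innate immunity 13 rose (27.1%, against 12.1% of all genes) and 1 fell, with a median of 0.58. The counts were 13 and 1 without library 3. Without library 1 the list held 9 calls, without library 2 it held 4, and against Cdk12 alone 3, all higher. The antifungal peptide gene Drs was at 1.80, 156.3 and 2.95 CPM against 0.958 to 5.84 CPM, so that its log2 fold change of 4.18 (SE 0.53, adjusted p 6.6e-05) came from library 2 and was -0.30 without it. pirk, an inhibitor of the IMD pathway, was at 37.1, 25.4 and 7.04 CPM against 1.93 to 10.3 with a median of 4.11 CPM (2.39, SE 0.31, adjusted p 8.3e-05; 2.41 against Cdk12, adjusted p 0.011). Myd88, an adaptor of the Toll pathway, was at 59.6, 71.5 and 43.5 CPM against 16.2 to 54.2 CPM (0.86, SE 0.15, adjusted p 0.00053). Against Cdk12 alone, Myd88 and the Toll-induced peptide gene BomS6 had log2 fold changes of 0.25 and 0.16 (adjusted p 0.63 and 0.89).

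Among 26 genes of DNA damage and cell death 8 rose and 1 fell (median 0.40), and 9 and 2 without library 3, 3 and 0 without library 1, 3 and 1 without library 2, and 2 and 0 against Cdk12 alone. hid, a proapoptotic gene that binds the caspase inhibitor Diap1, was at 44.3, 40.03 and 18.6 CPM against 8.58 to 22.9 with a median of 16.1 CPM (log2 fold change 1.11, SE 0.18, adjusted p 0.00033; 0.96 against Cdk12, adjusted p 0.029). grp, the Chk1 checkpoint kinase, and grnd, a receptor of the fly tumour necrosis factor, rose (0.98, adjusted p 0.00061, and 1.17, adjusted p 0.0022), and Drice fell as described above. Of 15 genes of JNK signalling and wound response 3 rose, Pvr, Mmp2 and Mmp1, a receptor tyrosine kinase and the matrix metalloproteases (1.296, adjusted p 0.0004; 1.49, adjusted p 0.00047; 0.74, adjusted p 0.0015). The same 3 were called against Cdk12 alone. Leaving out library 3 gave 3 higher and 5 lower, with a median of -0.25, and without library 1 or library 2 Pvr and Mmp2 were called. In the list of autophagy and lysosome 2 of 29 rose (6.90%, below the 12.1% of all genes), Vha68-2 and CtsB (0.76, adjusted p 0.022, and 0.52, adjusted p 0.029). Without library 3 that list turned to 3 higher and 6 lower, with a median of -0.22. EdgeR called 0 of the 29 without library 1, without library 2 and against Cdk12 alone, with 2, 2 and 6 at an unadjusted p under 0.05. Of 7 innexins, the subunits of gap junctions, 4 rose and 1 fell, with shakB and ogre higher (0.91, adjusted p 0.004, and 0.72, adjusted p 0.0047) and Inx7 lower at 3.93, 1.37 and 3.14 CPM against 2.15 to 18.5 CPM (-1.62, adjusted p 0.0043; -0.25 against Cdk12, adjusted p 0.86). The innexin counts were the same without library 3. Without library 1 only Inx7 was called, and shakB and ogre had adjusted p-values of 0.11 and 0.073. Without library 2 edgeR called 0 of the 7 (5 at an unadjusted p under 0.05), with 0.088 and 0.091 for this pair, and against Cdk12 alone shakB was the only call. Of 10 activity-induced genes 2 rose, CG13868 and CG17778 (1.52, adjusted p 8.7e-05, and 0.94, adjusted p 0.0085), while the list's median was -0.41. Leaving out library 3 gave 2 higher and 3 lower, and without library 1, without library 2 and against Cdk12 alone CG13868 was the only call.

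Many metabolic genes rose, and library 3 stayed within the reference range for those described here. Of 17 genes of purine synthesis and one-carbon metabolism 9 rose (median 0.71), and 11 without library 3, 2 without library 1, 4 without library 2 and 7 against Cdk12 alone. Prat2, the first enzyme of purine synthesis, was at 187.5, 151.6 and 43.3 CPM against 16.9 to 58.2 with a median of 34.3 CPM (log2 fold change 1.82, SE 0.24, adjusted p 8.3e-05). Gart, which catalyses later steps of that pathway, was at 276.8, 244.2 and 75.8 CPM against 35.4 to 152.4 CPM (1.34, SE 0.26, adjusted p 0.00097). Of 14 genes of gluconeogenesis and fasting 9 rose (median 0.91), and 9 without library 3, 3 without library 1, 6 without library 2 and 5 against Cdk12 alone. tobi, a glucosidase gene that responds to diet, was at 87.2, 73.1 and 29.5 CPM against 4.76 to 43.0 with a median of 15.1 CPM (2.05, SE 0.23, adjusted p 1.6e-05). AkhR, the receptor of adipokinetic hormone, and fbp, fructose bisphosphatase, rose (1.44, adjusted p 0.00053, and 1.37, adjusted p 0.00044). AkhR, tobi and the storage proteins named above are known from fat body.

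Of 14 glycolysis genes 7 rose (median 0.68), among them Hex-A, a hexokinase, at 218.6, 249.3 and 108.9 CPM against 57.5 to 138.8 CPM (0.88, SE 0.18, adjusted p 0.0015), and Pfk, phosphofructokinase (0.78, adjusted p 0.011). The list held 9 calls without library 3 and 1 without library 1. Without library 2 and against Cdk12 alone edgeR called none of the 14, with 7 and 10 at an unadjusted p under 0.05, and Hex-A and Pfk had adjusted p-values of 0.098 and 0.06 against Cdk12. Of 27 antioxidant and detoxification genes 9 rose and 1 fell (median 0.45), and 10 and 1 without library 3. Without library 1, without library 2 and against Cdk12 alone 2, 3 and 6 were called, all higher. Fmo-2, a flavin monooxygenase, was at 51.3, 34.1 and 9.90 CPM against 4.47 to 13.7 CPM (1.84, SE 0.28, adjusted p 0.00029), and Cyp6g1, a P450 known from insecticide resistance, rose by 1.19 (SE 0.22, adjusted p 0.0008). Cat, the catalase, was at 471.4, 432.8 and 941.3 CPM against 531.0 to 2174 CPM and fell (-0.98, SE 0.25, adjusted p 0.0077; -1.56 without library 3; chosen after its value was seen).

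Messengers of cytosolic ribosomal proteins formed the list with the most calls. Of 85 tested, 75 rose, and the median log2 fold change was 1.02. Their summed CPM were 17860, 17840 and 7006 in the Spt5-labelled libraries against 2219 to 10820 in the references. The median deviations of libraries 1 and 2, 1.36 and 1.39, were above every reference, whose medians ran from -1.62 (Trl replicate 1) to 0.68 (Spt6 replicate 2), and library 3 was at 0.07. RpLP2, a protein of the ribosomal stalk, was at 266.4, 294.6 and 66.3 CPM against 21.8 to 124.2 CPM (1.58, SE 0.27, adjusted p 0.00049). Without library 3, 77 of the 85 were called higher, without library 1 or library 2, 26 each, and against Cdk12 alone 2, with a median of 0.80. At an unadjusted p under 0.05 there were 74 without library 1, 74 without library 2 and 60 against Cdk12 alone. The nuclear genes of oxidative phosphorylation did not follow, with 2 of 80 higher and 2 lower (median 0.22), nor did the proteasome, with 1 of 48 higher and 1 lower (median -0.13), nor the 17 aminoacyl-tRNA synthetases. Of these LysRS rose (0.47, adjusted p 0.014), and ValRS and TrpRS fell (-0.70, adjusted p 0.016, and -0.55, adjusted p 0.028). The log2 fold change of TrpRS was -0.88 without library 3. Without library 3 these lists held 5 higher and 6 lower, 1 and 4, and 1 and 3. Without library 1, without library 2 and against Cdk12 alone edgeR called 0 in any of them, with 11, 2 and 15 at an unadjusted p under 0.05 in the first, 4, 2 and 3 in the second and 3, 3 and 2 in the third.

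Of 12 mitochondrially encoded messengers 4 rose, among them mt:ND1 at 127.9, 246.9 and 98.9 CPM against 22.1 to 175.2 CPM (1.12, SE 0.29, adjusted p 0.0098). The list's median was 0.50, but -0.25 against Cdk12 alone, where mt:ND1 was at 0.15 (adjusted p 0.92) and edgeR called 0, with 0 at an unadjusted p under 0.05. Without library 3, 3 of them were higher, without library 1, 2, and without library 2 edgeR called 0 (1 at an unadjusted p under 0.05). Of 68 small nucleolar and Cajal body RNAs 4 rose and 3 fell, with snoRNA:Psi18S-1377a at 16.3, 37.8 and 2.57 CPM against 0.127 to 5.80 CPM (3.27, SE 0.41, adjusted p 5.8e-05; 2.32 without library 2, adjusted p 0.017). Without library 3 the list held 7 higher and 6 lower, without library 1 it held 1 and 1, without library 2, 1 and 0, and against Cdk12 alone edgeR called 0 (10 at an unadjusted p under 0.05). This RNA and 2 neighbouring copies that rose, snoRNA:Psi18S-1377b and snoRNA:Psi18S-1377e, lie on 3R between 30206976 and 30207883 and may share reads.

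With all 3 libraries, few genes of the transcription machinery were called. Of 29 pausing and elongation factors 1 rose (3.45%) and 2 fell (6.90%), with a median of 0.02, against 12.1% and 4.8% of all genes. Without library 3 the list held 3 higher and 5 lower, with 11 at an unadjusted p under 0.05, against 5466 of 15202 over all genes. Without library 1, without library 2 and against Cdk12 alone edgeR called 0 of the 29, with 4, 3 and 5 at an unadjusted p under 0.05. Ctr9, a subunit of the Paf1 complex, was at 86.0, 86.0 and 48.9 CPM against 34.9 to 70.5 CPM (log2 fold change 0.59, SE 0.13, adjusted p 0.0029). Nelf-E, a subunit of NELF, was at 1.91, 3.27 and 2.00 CPM against 1.57 to 9.01 with a median of 4.45 CPM, and fell at this low level (-0.999, SE 0.32, adjusted p 0.031). Pcf11, a termination factor, was at 423.2, 358.3 and 562.4 CPM against 382.8 to 892.3 CPM (-0.52, SE 0.18, adjusted p 0.043). Its log2 fold change was -0.87 without library 3. Of 13 Integrator subunits 0 were called by edgeR, 2 had an unadjusted p under 0.05 and DESeq2 called 2. Without library 3, 1 was higher and 1 lower. Of 29 initiation factors only psq, which encodes a factor of GAGA elements, fell, at 672.3, 712.4 and 2169 CPM against 1172 to 2673 CPM (-0.76, SE 0.26; -1.68 without library 3), close to the threshold. Of 8 dosage compensation genes roX1 fell (lncRNA:roX1 at 4561, 4363 and 6347 CPM against 4496 to 12490 CPM; -0.73, SE 0.23, adjusted p 0.031), overlapping the lowest reference, Trl replicate 2. Without library 3, 1 initiation factor and 2 dosage compensation genes were lower. Without library 1, without library 2 and against Cdk12 alone edgeR called 0 in either list, with 0, 1 and 3 at an unadjusted p under 0.05 in the first and 3, 1 and 2 in the second.

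**Figure D4:**
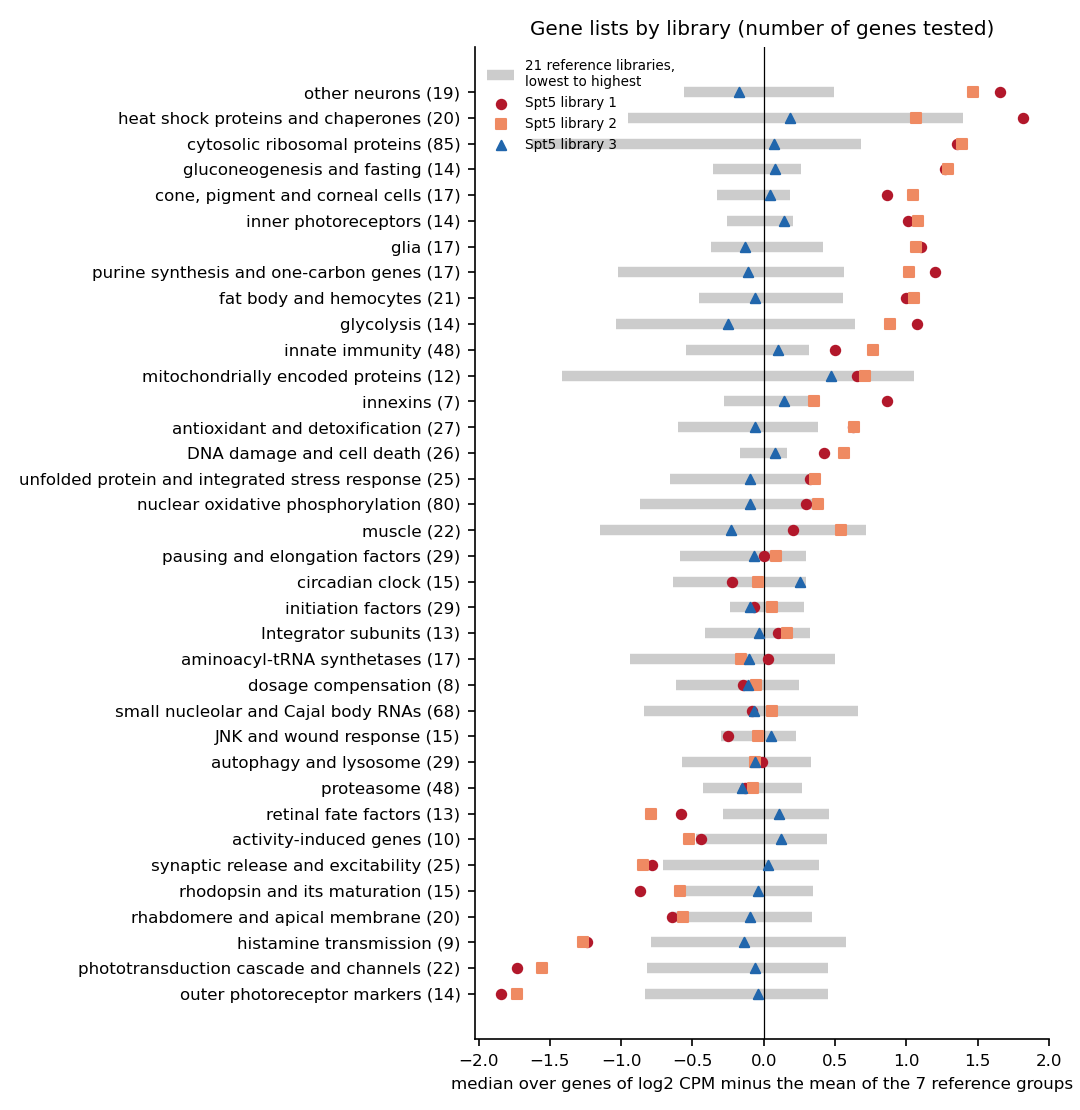
Median over the genes of each list of log2 CPM minus the mean of the 7 reference groups, with the number of genes tested in brackets; grey bars run from the lowest to the highest of the 21 reference libraries and symbols are the 3 Spt5-labelled libraries. For outer photoreceptor markers libraries 1 and 2 lie at -1.84 and -1.73, for other neurons at 1.66 and 1.47, and library 3 lies within the grey bar of every list.

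The share of genes called higher differed with the length of the gene. Among protein-coding genes that span less than 1 kb, 5.06% were called higher and 2.88% lower, and the corresponding shares were 11.3% and 5.28% between 2 and 5 kb. Between 20 and 50 kb they were 40.2% and 11.6%, and above 50 kb 46.4% and 7.90%, in 304 genes. The median log2 fold change went from -0.03 below 1 kb to 0.45 above 50 kb. By library, the medians above 50 kb were 0.63, 0.64 and -0.05, and below 1 kb -0.20, -0.31 and 0.22, so libraries 1 and 2 had the gradient and library 3 a weaker one of the opposite sign. Of named genes that span over 50 kb, 8 rose and 3 fell, but these were picked among called genes, so the split is not a separate result. Those that fell were Zasp52, sdt and psq, given above with their values. Those that rose include hth, a homeodomain factor, at 563.8, 550.7 and 144.1 CPM against 76.9 to 211.3 CPM (1.39, SE 0.25, adjusted p 0.00062), shakB, a gap junction gene (0.91, adjusted p 0.004), Mmp2 and para. Length, exon number, level and cell type differ together between these genes, and their separate parts were not tested.

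The level of a gene also went with its direction. Among genes with an average log2 CPM over 8, 6.37% were higher and 25.2% lower (675 genes, median -0.37), whereas between 4 and 6 the shares were 28.4% and 7.66%. By class, 13.7% of protein-coding genes were higher and 4.89% lower, and of non-coding RNA genes 2.97% and 4.40%. On the X chromosome 14.3% of genes were higher and 5.49% lower, and on 2R 12.4% and 4.65%.

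**Figure D5:**
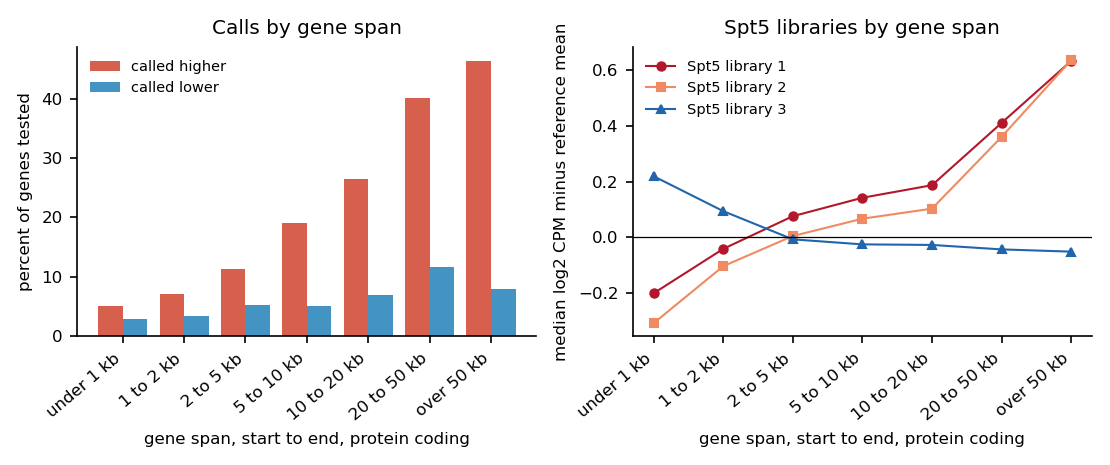
Left, percent of tested protein-coding genes called higher and lower in each class of gene span, bars from 0; right, median over the same genes of log2 CPM minus the mean of the 7 reference groups for each Spt5-labelled library. The share called higher goes from 5.06% below 1 kb to 46.4% above 50 kb, and library 3 does not follow libraries 1 and 2.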

How the data were processed

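The deposited files hold, for each library, whole-number counts of reads per gene, made by the authors with Trimmomatic 0.39, HISAT2 and HTSeq on BDGP6, per the submitters' processing notes; the annotation release and strand setting are not given in the sources used here. Per the labels' protocols, nuclear RNA (10 ng) was depleted of ribosomal RNA. The 5 summary rows of each file held 51.8% to 74.5% of reads and, with transgene rows, stayed out of library sizes and tests. Of 17807 gene rows 17710 matched the Ensembl annotation, release 115, which gives the positions printed.

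Counts were fitted with edgeR 4.0.16 in R 4.3.3 (TMM scaling, minimum count 10, minimum total 15, 24 libraries, 1 mean per group). The contrast, Spt5 minus the mean of 7 group means, went through edgeR's quasi-likelihood test, two-sided, adjusted over 14905 genes after Benjamini and Hochberg. This is the source of all gene-level adjusted p-values for which no other setting is named, and calls needed a value below 0.05. Values against 1 reference group alone are other contrasts of the same fit, so their spread comes from all 24 libraries. Values without a library come from fits made anew. Standard errors (SE) were taken as log2 fold change over the root of the F statistic. CPM rest on TMM-scaled sizes (prior count 2 for log2 values). The procedure was tested on simulated data. Alternatives were DESeq2 1.42.0, other references, filters and scalings, a replicate block and left-out libraries; an alternative without library 3 with a background covariate and a fit of Spt5 and Cdk12 alone were chosen after seeing the data. P-values measure the spread between libraries labelled biological replicates, and depth covers counting error only.

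The comparison, the 35 gene lists, the 14 outer photoreceptor markers and the naming rule were chosen with earlier results of these data known. The rule names up to 12 called genes per direction beyond all 21 references whose average log2 CPM reached 3 and with a symbol that is not a bare number or a small or antisense RNA, the targets, ninaE and up to 4 called members per list; 12 listed symbols matched no row and 15 were read by another name.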

Additional observations from a re-analysis of the deposited data

How the results depend on the processing

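The call counts depended most on the Spt5-labelled libraries and on the reference. Leaving out 1 library of any group gave between 554 and 4131 genes called (500 to 2195 higher, 54 to 2095 lower), with 554 without Spt5 replicate 1, 707 without replicate 2 and 4131 without replicate 3. With 1 reference group alone the counts were 1311 for Spt6 (720 higher), 710 for TH1 (536 higher, 174 lower), 801 for Cdk12 (709 higher, 92 lower), 392 for Top1 (240 higher, 152 lower) and 939 for cnc (565 higher, 374 lower). A fit of the 6 libraries of Spt5 and Cdk12, with fewer samples, called 2 genes (0 higher, 2 lower). Without Spt5 library 3 and with reads outside annotated features as a covariate, 5288 were called (2725 higher, 2563 lower). DESeq2 called 3192 of 11145 genes with an adjusted p, 60.2% of them higher against 71.6% with edgeR, and 1270 lower. Taking the 21 references as 1 group gave 470 lower. For these counts the cause was not tested beyond what each setting left out. Fits with all 30 libraries, other size factors, no filter or 1 reference group fewer gave between 2247 and 2793 calls.

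Deviations from the group mean in Spt5-labelled and same-numbered reference libraries had correlations of -0.48 to 0.31 (21 pairs, 3 over 0.1). Pairs among the reference groups were not examined, so this does not settle whether the numbers pair the samples. The fit with a replicate block called 2799 genes, and with the block and the background covariate 1113 were lower. Reads outside annotated features differed by -16.4 per 100 gene counts, and by -6.19 to -31.6 with a Spt5-labelled library left out.

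Of the 133 named genes that were called, 132 were also called in the same direction without Spt5 replicate 3, 68 without replicate 2, 60 without replicate 1, 59 against Cdk12 alone, 129 with DESeq2 and 0 of 131 in the fit of 6 libraries. Among all 141 named genes the sign of 1, 3, 0 and 2 changed in the first 4 of these settings, mostly of target genes near 0. Leaving out 1 library, Drs ranged from -0.296 (without Spt5 replicate 2) to 4.805, and against Trl alone mt:ND6 was at -0.091 and Spt5 itself at 0.50 (adjusted p 0.049). A promoter motif search was not run. At this depth, 0.476% of genes with an average log2 CPM under 0 were called higher and 0.265% lower.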

Other observations

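The libraries of LexA and dom, which stood outside the comparison, were read for the 60 genes in which the Spt5-labelled libraries lay beyond all 21 references. Of the 30 above, 28 were also above all 3 LexA libraries, 16 above all 3 dom libraries and 15 above both. Of the 30 below, 27 were below LexA, 18 below dom and 16 below both. Cyp4p2 was at 32.5, 55.9 and 32.5 CPM in LexA and at 374.5, 473.7 and 363.7 CPM in dom, so that LexA, unlike the 21 references, was at the level of the Spt5-labelled libraries. CG4839 was at 24.8, 28.3 and 14.98 CPM in LexA but at 7.199, 2.40 and 3.63 CPM in dom, against 5.01, 7.21 and 8.51 CPM in the Spt5-labelled libraries on the same scale of 30 libraries. kek2 overlapped LexA, and SP1029 overlapped dom, where it stood at 26.8, 29.1 and 27.1 CPM. These genes were chosen after their values were seen.

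Among the genes beyond all references but outside the naming rule were slp1, a forkhead factor of segmentation, at 8.65, 7.29 and 5.24 CPM against 1.64 to 4.99 CPM (log2 fold change 1.29, adjusted p 0.001), Egfrap at 13.03, 11.7 and 6.85 CPM against 2.18 to 6.55 CPM (1.43, adjusted p 0.00025), and c(3)G, a protein of the synaptonemal complex, at 7.25, 10.8 and 7.23 CPM against 2.33 to 7.02 CPM (0.80, adjusted p 0.021). They were chosen after their values were seen. The signal recognition particle RNA 7SLRNA:CR32864 was at 1516, 2658 and 342 CPM against 7.56 to 804 CPM (3.27, SE 0.36, adjusted p 1.6e-05; 2.61 without library 2, adjusted p 0.0026), with libraries 1 and 2 above every reference; its close copies and the share of reads aligned to several places, given with the depth of the libraries, limit its count.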
